A study of Macaca mulatta with 4 samples.

Results

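The cytosolic ribosome is built of a small and a large subunit, each a scaffold of ribosomal RNA dressed with ribosomal proteins, and it makes nearly all proteins of the cell. The messages for these proteins carry a 5′ terminal oligopyrimidine (TOP) start, through which the mTOR kinase and the RNA-binding protein LARP1 set their translation and stability. In droplet data of blood they are among the most abundant messages, above all in lymphocytes. The genes followed here were taken by symbol alone: gene rows whose name starts with RPL or RPS and goes on as a number with the usual paralog endings, RPLP rows, and RPSA. They are 70 of 15354 gene rows, 29 of the small and 41 of the large subunit. Among them 7 are rows of paralogs (RPS4Y1, RPS4Y2, RPS27L, RPL3L, RPL7L1, RPL22L1 and RPL36AL), and 69 of the 70 had at least 1 UMI (a counted molecule) in every library. The exception was RPL3L, the muscle form of RPL3.

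The cells were peripheral blood mononuclear cells of rhesus macaque, in a study of islets made from human chemically induced pluripotent stem cells and transplanted into macaques. There were 4 libraries, 1 per group: Pre-IS, taken before immunosuppression; Post-IS, taken after immunosuppression and before the transplant; and 4 wpt and 8 wpt, taken 4 and 8 weeks after transplantation. Drugs, doses, age, sex and whether the libraries came from 1 animal are not given in the sources used here. The question was how the blood cells of the recipient respond to the graft. With 1 library per group no difference between libraries has a replicate check, and no test or p-value is given. Intervals are 95% and cover counting error only.

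The libraries held 1928 cells (Pre-IS), 603 (Post-IS), 1882 (4 wpt) and 2580 (8 wpt), with a median of 1563, 1168, 3551 and 1877 UMIs per cell. Post-IS stood apart: it had the fewest cells, the lowest median depth, the highest mitochondrial share (1.36% of UMIs, against 0.653% to 0.948%) and 9 NK and 12 B cells. Between 0 and 12 cell barcodes were shared by any pair of libraries. The authors' cell type labels were used as deposited. The marker lists of NK cells, naive B cells, CD14+ monocytes, MS4A7+ monocytes, dendritic cells (spelled "Dentritic cell" in the labels) and proliferating cells each had their highest summed level in the label of that name in all 4 libraries. The T cell list did so in 3, with proliferating NK/T cells (2 cells) above in Post-IS, and the B cell list in Pre-IS only, with naive B cells above elsewhere.

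The plot of member share by label and library shows that ribosomal protein genes took the largest part of the UMIs in T cells and the smallest in MS4A7+ monocytes. In T cells, the lymphocytes of cellular immunity, they were 28.8% of UMIs in Pre-IS, 30.4% in Post-IS, 27.1% at 4 wpt and 27.3% at 8 wpt. In CD14+ monocytes, the classical monocytes that carry the LPS co-receptor CD14, they were 16.8%, 14.1%, 17.1% and 17.2% in the same order. In MS4A7+ monocytes, whose markers include the Fc receptor FCGR3 and the fractalkine receptor CX3CR1, they were 11.4%, 10.8%, 9.65% and 13.9%. The 3 labels did not overlap: the lowest T cell share was above the highest CD14+ share, and the lowest CD14+ share above the highest MS4A7+ share.

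**Figure D1:**
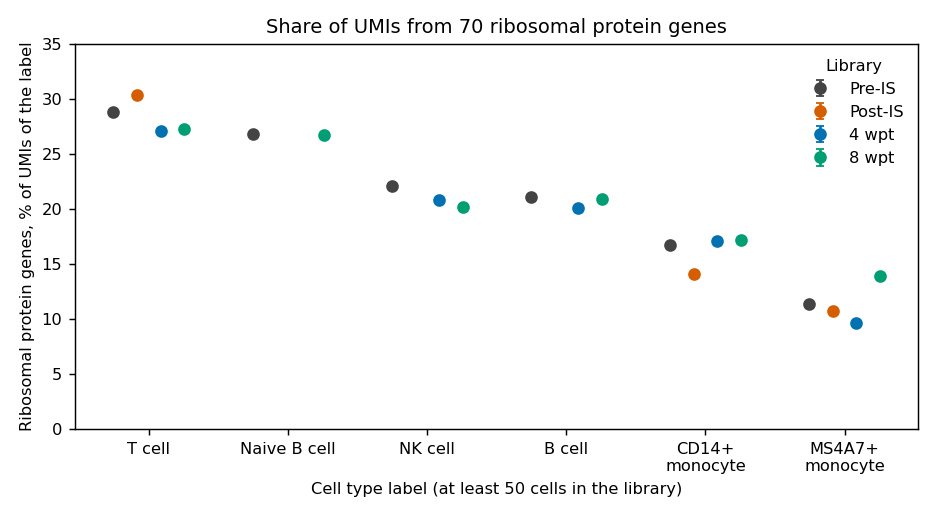
Share of UMIs from the 70 ribosomal protein genes (percent, vertical axis) by cell type label and library, labels of at least 50 cells. Points are shares of summed UMIs, and T cells stand highest and MS4A7+ monocytes lowest in each of the 4 libraries.

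The remaining lymphocyte labels lay between. NK cells had 22.1% in Pre-IS, 20.8% at 4 wpt and 20.2% at 8 wpt. B cells had 21.1%, 20.1% and 20.9%. Naive B cells, the B cells not yet exposed to antigen, had 26.8% in Pre-IS and 26.7% at 8 wpt, near T cells and above the B cell label. The order T cells highest, CD14+ monocytes second lowest and MS4A7+ monocytes lowest held in 4 of 4 libraries. It held in 3 of 4 when each cell was given equal weight. A share of UMIs cannot tell fewer ribosomal protein messages from more of other messages.

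The share of T cells over that of CD14+ monocytes was 1.72 in Pre-IS, 2.16 in Post-IS, 1.58 at 4 wpt and 1.59 at 8 wpt. The 2 subunits kept a near fixed balance: among labels of at least 50 cells, small subunit genes gave between 42.1% (MS4A7+ monocytes, Post-IS) and 46.5% (NK cells, Pre-IS) of the ribosomal protein UMIs. Summed over a label, the 10 members with most UMIs made up 27.9% of the ribosomal protein UMIs in T cells, 29.0% in B cells and 31.6% in CD14+ monocytes. No single gene therefore carried the share. In T cells 60 of 70 members had a mean level over the libraries above 1000 CPM (its UMIs per 1000000 UMIs of the label), against 52 in CD14+ monocytes and 47 in MS4A7+ monocytes. CPM of a 5′ UMI library counts message ends and was not divided by length.

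T cells were not uniform. They were split by marker genes, a split made after the data were seen: cells with a UMI of the homing receptor CCR7 or the transcription factor LEF1 and none of the cytotoxic genes GZMB, NKG7, PRF1 and GNLY (naive genes only), and cells with the reverse (cytotoxic genes only). The share was 34.2% in naive gene cells and 21.7% in cytotoxic gene cells in Pre-IS, 33.9% and 20.5% in Post-IS, 30.9% and 19.8% at 4 wpt, and 33.6% and 20.2% at 8 wpt. The naive gene cells were thus higher in all 4 libraries, by 1.58, 1.66, 1.56 and 1.66 times. The cytotoxic gene cells lay near the NK cells of the same library where these were compared. Having a UMI of a marker depends on depth, and the naive gene cells were deeper (for example a median of 1757 against 1376 UMIs in Pre-IS). With every cell thinned to 1000 UMIs and the split made again, the ratios were 1.57, 1.74, 1.56 and 1.67. In Post-IS the cytotoxic side is 17 cells, and 9 after thinning.

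**Figure D2:**
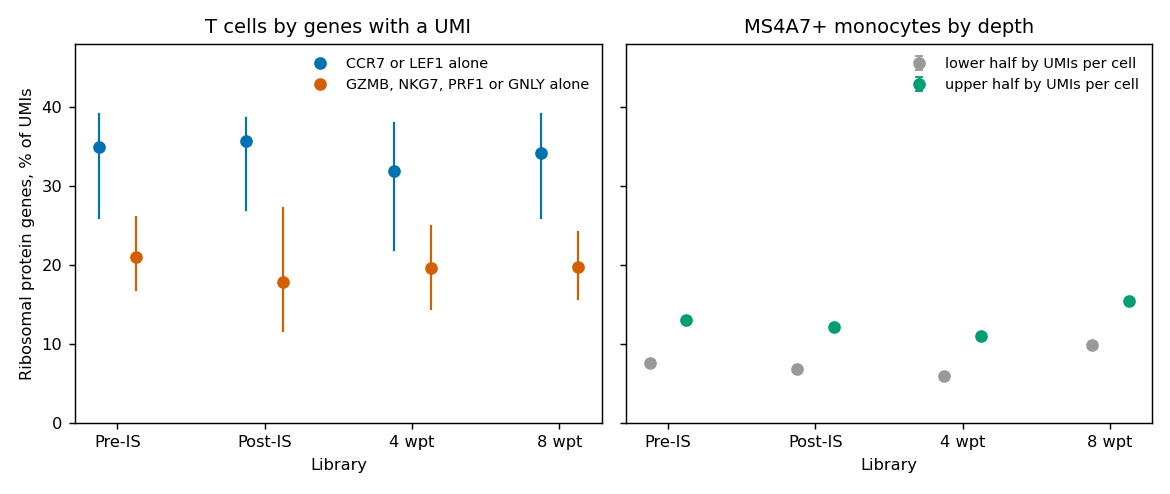
Ribosomal protein share (percent) within labels, by library. Left, share per cell in T cells split by marker genes, where dots are medians over cells and lines run from the 10th to the 90th percentile. Right, share of summed UMIs in MS4A7+ monocytes split at the median depth of their library. Cells with naive genes and deeper cells have the higher share in each library.

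Most members took part in this difference. Members past 1.5-fold higher in naive gene cells were 41 of 68 in Pre-IS, 49 of 66 in Post-IS, 38 of 69 at 4 wpt and 47 of 69 at 8 wpt. Of all gene rows with at least 20 UMIs over both sides, 10.7%, 24.2%, 11.1% and 9.38% were past 1.5-fold higher in the same libraries. RPL22L1, the paralog of the RNA-binding protein RPL22, was 2.65, 3.38, 2.12 and 3.41 times as high in naive gene cells. RPL10A, of the large subunit, was 2.08, 2.20, 1.93 and 2.30 times as high. At the other end stood RPS27L, the p53-inducible paralog of RPS27, at 0.84, 0.38, 0.61 and 0.56. It was the lowest of the members tested in each library, and RPL36AL, the paralog of RPL36A, was at 0.99, 0.67, 1.01 and 0.87. Members past 1.5-fold lower were 0, 2, 1 and 1, where 35.7%, 31.1%, 28.3% and 35.7% of all rows were, and in Post-IS RPL36AL was the second of the 2. RPL10A was picked here after its values were seen.

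MS4A7+ monocytes also varied from cell to cell, with depth. Split at the median UMI count of their library, the shallower cells had a share of 7.55% in Pre-IS, 6.86% in Post-IS, 5.90% at 4 wpt and 9.85% at 8 wpt. The deeper cells had 13.0%, 12.1%, 11.0% and 15.4%. Spearman's rho between share and depth over cells was 0.76, 0.71, 0.67 and 0.71 (n = 75, 131, 207 and 65 cells, each set from 1 library and its own depth). The same rho was 0.47, 0.31, 0.27 and 0.51 in T cells, 0.42 and 0.41 in naive B cells (Pre-IS and 8 wpt) and 0.40, 0.16 and 0.22 in NK cells (Pre-IS, 4 wpt and 8 wpt), so that deeper lymphocytes also had a higher share. In CD14+ monocytes it lay between -0.11 and 0.08. Shallower T cells of Pre-IS had a share of 25% and deeper ones 31.1%. The shallower MS4A7+ cells also had more mitochondrial UMIs, 2.08%, 3.8%, 3.24% and 1.73% against 1.24%, 1.78%, 1.53% and 1.14% in the deeper ones. The part of RNA quality in these shares was not tested.

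Ratios between T cells and CD14+ monocytes were then taken member by member in each library. Members past 1.5-fold higher in T cells were 41 of 69 tested in Pre-IS, 58 of 68 in Post-IS, 35 of 69 at 4 wpt and 36 of 69 at 8 wpt. The share of all rows past the same fold was 33.7%, 20.8%, 36.9% and 34.9%. Among rows of at least 500 UMIs, a minimum added after the data were seen, it was 30.7%, 41.5%, 28.1% and 26.7%. Of those rows 26.6%, 38.1%, 22.6% and 24.0% were past the fold on the lower side. No member was past 1.5-fold lower in any of the 4, where 22.3%, 41.2%, 20.4% and 21.0% of all rows were. The members' median log2 ratio was 0.77, 1.08, 0.64 and 0.61, against 0.16, -0.27, 0.25 and 0.21 over all rows. In each of the 4 libraries 32 of 68 members were past 1.5-fold higher (10.1% of all rows) and 0 were lower (22.3%). Without Post-IS the count was 32 as well. TMM scaling moved all log2 ratios of this contrast down by 0.10 to 0.19, and that of MS4A7+ over CD14+ monocytes by 0.35 to 0.54.

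**Figure D3:**
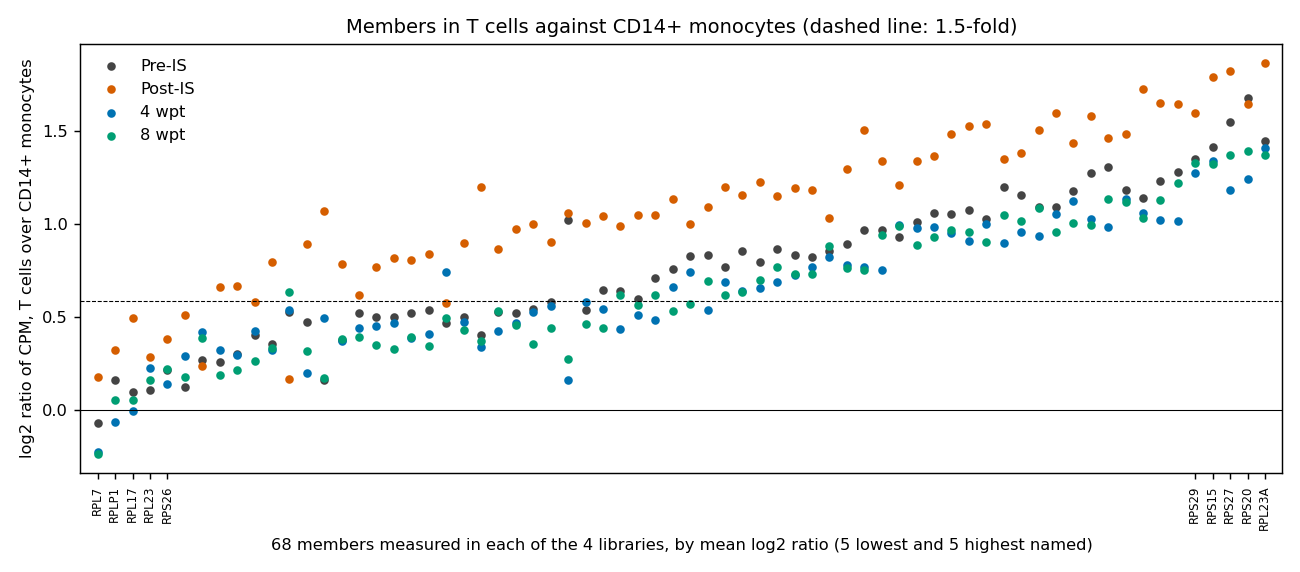
Log2 ratio of CPM, T cells over CD14+ monocytes, for 68 members in 4 libraries. Members are ordered by their mean over libraries. Nearly all lie above 0, from RPL7 near 0 to RPL23A above 1 in every library.

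RPL23A, which sits at the exit of the nascent chain tunnel, was the highest of the members by its share of ribosomal protein UMIs. Its level in T cells was 5739, 6297, 6833 and 5888 CPM in Pre-IS, Post-IS, 4 wpt and 8 wpt, and in CD14+ monocytes 2103, 1732, 2572 and 2275 CPM. All 4 T cell values lay above all 4 monocyte values. The ratios were 2.73 (2.56 to 2.90), 3.64 (3.30 to 4.01), 2.66 (2.56 to 2.76) and 2.59 (2.48 to 2.71). RPS20, of the head of the small subunit, had ratios of 3.2, 3.12, 2.37 and 2.63. RPS27, a zinc-binding protein of the small subunit, had 2.92, 3.54, 2.27 and 2.59, and RPS15, close to the decoding site, had 2.66, 3.46, 2.53 and 2.50. RPS29 completed the highest 5, with 2.55, 3.02, 2.42 and 2.51. Of these 5, 4 are small subunit proteins. The ranking covers members only. A row outside the rule, under an identifier named RPS19, was at 7651, 8238, 7081 and 7068 CPM in T cells. In CD14+ monocytes that row was at 2612, 1999, 2568 and 2590 CPM.

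RPL7, a large subunit protein that binds RNA, was the lowest. Its level in T cells was 831, 925, 1192 and 968 CPM, and in CD14+ monocytes 874, 820, 1396 and 1140.2 CPM. The groups overlapped, and the ratios were 0.95 (0.85 to 1.06), 1.13 (0.92 to 1.38), 0.85 (0.81 to 0.91) and 0.85 (0.79 to 0.91). RPLP1, an acidic protein of the stalk that recruits elongation factors, was at 1.12, 1.25, 0.95 and 1.04. Its stalk partner RPLP2 had 1.55, 1.98, 1.35 and 1.53. RPL17, at the tunnel exit, had 1.07, 1.41, 1.00 and 1.04, RPL23 had 1.08, 1.22, 1.17 and 1.12, and RPS26, at the exit of the mRNA channel, had 1.16, 1.3, 1.10 and 1.16.

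Taken as a share of ribosomal protein UMIs, which removes the level common to all members, 5 members were past 1.5-fold the same way in each of the 4 libraries. RPL23A (1.59, 1.68, 1.68 and 1.63) and RPS15 (1.55, 1.60, 1.59 and 1.57) were higher in T cells. RPL7 (0.55, 0.52, 0.54 and 0.53), RPLP1 (0.65, 0.58, 0.60 and 0.65) and RPL17 (0.62, 0.65, 0.63 and 0.65) were higher in CD14+ monocytes. The count depended on the limit, with 7 past 1.4-fold, 10 past 1.3-fold and 26 past 1.2-fold. These lower limits were chosen after the data were seen, and were changed once with their counts known.

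Against NK cells, the lymphocytes nearest in function to cytotoxic T cells, 3 of 67 members were past 1.5-fold higher in T cells in each of the 4 libraries and 0 were lower. Of all rows 5.50% were higher and 3.77% lower, so the higher count is near the background. It was 10 with CPM taken of the total without ribosomal protein genes, for which no share of all rows was computed. The 3 were RPL22L1 (2.21, 2.81, 2.19 and 2.90), RPL8, close to the peptidyl transferase centre (1.61, 1.66, 1.55 and 1.62), and RPS13 (1.54, 1.62, 1.59 and 1.56). The Post-IS values rest on 9 NK cells. Without Post-IS there were 4, with RPS16 added.

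In B cells 0 of 67 members were past 1.5-fold above T cells in each library (6.05% of all rows). The lower ones numbered 5 (10.8% of all rows), with RPL32, RPL30, RPS21 and RPL38 among them. RPL38 was at 0.65, 0.48, 0.64 and 0.66. Post-IS holds 12 B cells, and without it there were 6, with RPS24 added. Both counts are near the background of all rows. The count of 5 became 15 with CPM taken of the total without ribosomal protein genes, and 2 after thinning to 1000 UMIs. No share of all rows was computed for these alternatives.

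MS4A7+ monocytes were set against CD14+ monocytes, with 0 of 68 members higher in each library (11.2% of all rows) and 4 lower (5.98%). The lower count is near the background of all rows. Without Post-IS, RPS27L was past the fold on the higher side. The 4 lower ones were RPSA, the laminin receptor and small subunit protein, RPL5, which carries 5S RNA and can bind MDM2, RPL10, which joins late in assembly, and RPS26. RPSA was at 1039.5, 1131, 818 and 1545 CPM in MS4A7+ monocytes against 2423, 2207, 2750.1 and 2776 CPM in CD14+ monocytes. All its MS4A7+ values lay below all its CD14+ values, with ratios of 0.43, 0.51, 0.30 and 0.56. RPL5 had 0.42, 0.59, 0.38 and 0.52, RPL10 0.46, 0.55, 0.34 and 0.66, and RPS26 0.48, 0.45, 0.36 and 0.64. With TMM scaling 32 members were lower in each library, and with the median of ratios 23. These scalings shifted all log2 ratios of this contrast, by -0.54 to -0.35 (TMM) and -0.41 to -0.21 (median of ratios). The share of all rows past the fold was not computed under either, so these counts have no background.

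RPS27L and RPS20 went the other way in this contrast. RPS27L had 1.98, 1.38, 1.76 and 2.45 times the CD14+ level on 34, 39, 147 and 68 UMIs in MS4A7+ monocytes. Its part of the UMIs of RPS27 and RPS27L together was 18.4%, 18.9%, 21.3% and 19.3% in MS4A7+ monocytes, against 4.87%, 4.62%, 6.44% and 6.04% in T cells and 9.43% to 13.3% in CD14+ monocytes. RPS20 had 2.07, 2.10, 1.60 and 1.28 times the CD14+ level.

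Between libraries, few members were past 1.5-fold in T cells. In Post-IS over Pre-IS the share ratio was 1.055 (1.045 to 1.066), and 2 of 69 members were past 1.5-fold (RPL7L1 and RPL17, both higher), where 42.8% of all rows were. The ratio was 0.892 for 4 wpt over Post-IS, 0.897 for 8 wpt over Post-IS, 1.006 for 8 wpt over 4 wpt, 0.941 for 4 wpt over Pre-IS and 0.947 for 8 wpt over Pre-IS. These comparisons share libraries and are not independent. Members past 1.5-fold were 4 (47.1% of all rows), 1 (47.2%), 0 (15.4%), 2 (20.5%) and 0 (14.6%) in that order. Rows with few UMIs pass a fold more easily. Among rows of at least 500 UMIs, a minimum added after the data were seen, 11.5% were past it in Post-IS over Pre-IS, with 1 of 64 members.

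The makeup of the T cell label also differed between libraries. Cells with naive genes only were 39.8% of T cells in Pre-IS, 54.8% in Post-IS, 48.9% at 4 wpt and 34.3% at 8 wpt. Cells with cytotoxic genes only were 40.2%, 14.8%, 30.3% and 48%. Post-IS had the highest fraction of naive gene cells and the highest share. The next highest fraction was at 4 wpt, with a share of 27.1%, below the 28.8% of Pre-IS. These fractions depend on depth. With cells thinned to 1000 UMIs and split again, naive gene cells were 35.1%, 50.6%, 35.6% and 26.3% of T cells. Cytotoxic gene cells were then 38.2%, 10.6%, 30.2% and 47.7%. The naive gene fraction at 4 wpt was thus above that of Pre-IS before thinning and near it after. Averaged over cells, the T cell share was 27.8% in Pre-IS, 29.7% in Post-IS, 26.2% at 4 wpt and 26.1% at 8 wpt. With the marker groups also weighted as in Pre-IS, these means were 27.8%, 26.7%, 24.8% and 27.0%. The weighted Post-IS over Pre-IS ratio was 0.961 and that of 8 wpt over Post-IS 1.010. In shares of summed UMIs, without this weighting, they were 1.055 and 0.897. The direction of both thus turned with the weighting, which was chosen after the data were seen. Summed NK cell markers in the T cell label were 1502, 598, 926 and 1721 CPM. They were lowest in Post-IS, where the share was highest, and next lowest at 4 wpt, where it was below Pre-IS. The part of the label's makeup in the differences of share between libraries was not tested. T cells of 8 wpt over 4 wpt were at 0.997 with each cell weighted equally and 0.996 after thinning.

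In CD14+ monocytes Post-IS had the lowest share of the 4 libraries. The ratio was 0.840 (0.831 to 0.848) for Post-IS over Pre-IS, 1.21 for 4 wpt over Post-IS and 1.22 for 8 wpt over Post-IS. The libraries other than Post-IS lay close together, at 1.005 (8 wpt over 4 wpt), 1.020 (4 wpt over Pre-IS) and 1.024 (8 wpt over Pre-IS). After thinning to 1000 UMIs the Post-IS over Pre-IS ratio was 0.851. Only 4 of 68 members had a ratio above 1 in Post-IS over Pre-IS, and the median log2 ratio was -0.29 against 0.04 over all rows.

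Members past 1.5-fold in CD14+ monocytes were then counted. In Post-IS over Pre-IS 3 of 68 were past it, all lower (RPL31, RPL38 and RPS2). Of all rows 29.6% were past it, 16.63% higher and 13.0% lower. For 4 wpt over Post-IS 11 of 69 were past it, all higher. Of all rows 29.5% were past it, 14.08% higher and 15.4% lower, so the higher count is near the background. For 8 wpt over Post-IS 5 of 69 were past it, all higher. Of all rows 27.5% were past it, 13.96% higher and 13.5% lower. Among rows of at least 500 UMIs, 2 of 62, 8 of 64 and 4 of 64 members were past it in these comparisons. Of all such rows 9.86%, 18.01% and 12.3% were. The other comparisons gave 1 (19.7% of all rows in either direction), 4 (25.7%) and 2 (21.3%). These were 8 wpt over 4 wpt, 4 wpt over Pre-IS and 8 wpt over Pre-IS. RPS20 was at 551, 403, 809.8 and 659 CPM, lowest in Post-IS. RPS2, of the small subunit, was at 1012, 638, 977 and 1049 CPM, also lowest in Post-IS, and the other 3 libraries lay together.

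Other values moved with the Post-IS monocytes. The mitochondrial share of the CD14+ label was 0.792%, 1.24%, 1.03% and 0.894%. The 5 platelet markers summed to 23.7, 261, 21.3 and 194 CPM there. In Pre-IS 2 of the 5 had a UMI, with PF4, ITGA2B and GP9 at 0, and in Post-IS all 5 had one. The platelet marker sum of 261 CPM in Post-IS stood beside a share of 14.1%, and that of 194 CPM at 8 wpt beside a share of 17.2%. T cell markers in the CD14+ label summed to 29.0 to 64.6 CPM in all 4 libraries, with CD3G at 0 in Post-IS. The part of RNA quality and of platelet RNA in the lower share was not tested.

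**Figure D4:**
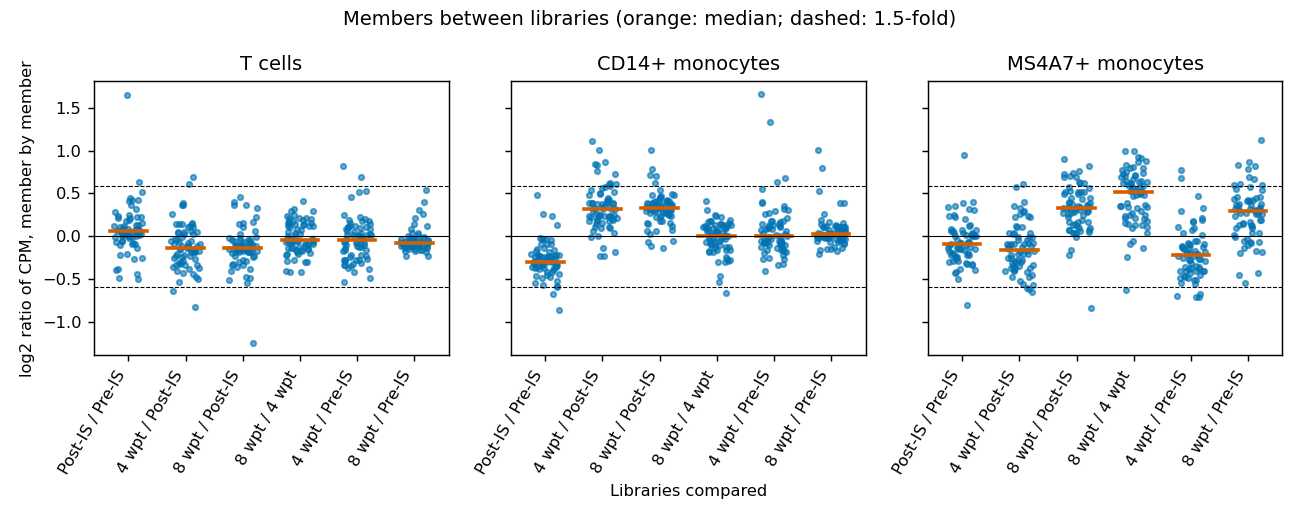
Log2 ratio of CPM between libraries for each member in T cells, CD14+ monocytes and MS4A7+ monocytes, 6 comparisons. Orange bars are medians and dashed lines mark 1.5-fold. CD14+ members lie below 0 as a group in Post-IS over Pre-IS, and MS4A7+ members lie above 0 in 8 wpt over 4 wpt.

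MS4A7+ monocytes had their lowest share at 4 wpt and their highest at 8 wpt. The ratio of 8 wpt over 4 wpt was 1.44 (1.41 to 1.46), the farthest from 1 of the 25 share ratios. In this comparison 30 of 68 members were past 1.5-fold, 29 of them higher. Of all rows 39.0% were past it, 11.3% higher and 27.7% lower. Among rows of at least 500 UMIs, 27 of 53 members and 35% of all rows were past it in either direction. The other ratios were 0.949 (Post-IS over Pre-IS), 0.896 (4 wpt over Post-IS), 1.29 (8 wpt over Post-IS), 0.850 (4 wpt over Pre-IS) and 1.22 (8 wpt over Pre-IS). Of 68 members tested, 2 (31.4% of all rows), 4 (34.2%), 12 (34.5%), 6 (36.9%) and 10 (29.8%) were past 1.5-fold in either direction, in that order. Of the 12, 11 were higher, where 12.3% of all rows were higher and 22.2% lower. All of the 10 were higher, where 13.0% of all rows were higher and 16.8% lower. The counts of 2, 4, 12, 6 and 10 moved with the processing. After thinning to 1000 UMIs they were 4, 28, 6, 30 and 5, and with TMM scaling 2, 2, 26, 3 and 26. The share of all rows was not computed under these settings.

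The MS4A7+ values also moved with the depth of the cells. After thinning, which left out 33, 76, 28 and 11 of the 75, 131, 207 and 65 cells, the shares were 12.4%, 12.2%, 8.63% and 13.4%. The 8 wpt over 4 wpt ratio was then 1.55, and 4 wpt over Post-IS went from 0.896 to 0.709. RPS12, of the small subunit, was at 2289, 1966, 1911 and 3474 CPM, highest at 8 wpt. RPL10, at 3308, 3336, 2406 and 4813 CPM, was lowest at 4 wpt and highest at 8 wpt, as was the whole set. RPS20 went against it, at 1139, 849, 1298 and 845 CPM. The mitochondrial share of the label was 1.5%, 2.29%, 1.99% and 1.3%, and CD14+ monocyte markers summed to 1639, 1777, 1005 and 2575 CPM in it, lowest at 4 wpt and highest at 8 wpt. Their part in the ratio was not tested. RPS12 was picked here after its values were seen.

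NK cells and B cells could be compared without Post-IS only. In NK cells the share ratio was 0.943 for 4 wpt over Pre-IS, 0.917 for 8 wpt over Pre-IS and 0.972 for 8 wpt over 4 wpt. In B cells it was 0.952, 0.989 and 1.039, and in naive B cells 0.996 (0.983 to 1.009) for 8 wpt over Pre-IS, an interval that holds 1. All but the B cell ratio of 8 wpt over 4 wpt were below 1.

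Beside the level common to all members, single members moved in their share of the ribosomal protein UMIs. RPL38, a surface protein of the large subunit known in mice for the translation of Hox messages, was the clearest. Its level in T cells was 6128 CPM in Pre-IS, 4523 in Post-IS, 5023 at 4 wpt and 5838 at 8 wpt. In CD14+ monocytes it was 2877, 1592, 2628 and 2748 CPM, and in MS4A7+ monocytes 2799, 1603, 2112 and 2987 CPM. Post-IS was the lowest library in all 3 labels. As a share of ribosomal protein UMIs, Post-IS over Pre-IS was 0.70 (0.64 to 0.76) in T cells, 0.66 (0.60 to 0.72) in CD14+ monocytes and 0.60 (0.50 to 0.72) in MS4A7+ monocytes. The ratio of 8 wpt over Post-IS was 1.44, 1.42 and 1.45. After thinning, the Post-IS over Pre-IS ratios were 0.73, 0.61 and 0.62. All 3 labels come from the same libraries, and a difference of the Post-IS library from a difference of its cells cannot be told apart.

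**Figure D5:**
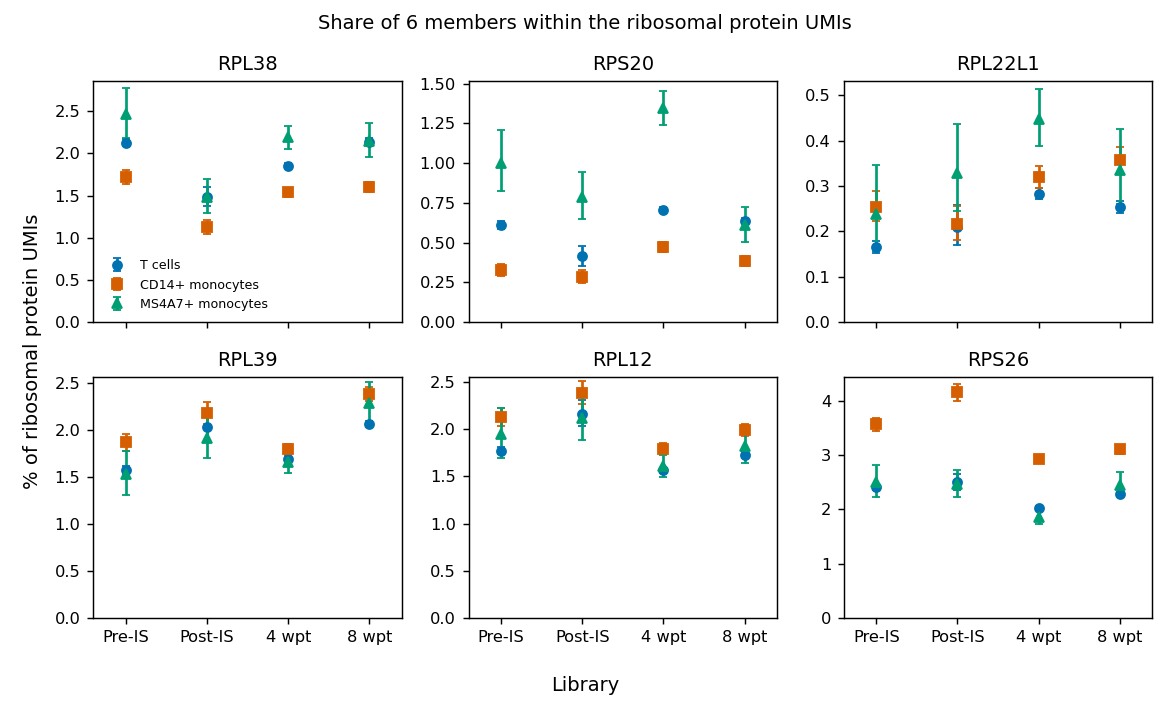
Percent of all ribosomal protein UMIs given by RPL38, RPS20, RPL22L1, RPL39, RPL12 and RPS26, by label and library. RPL38 is lowest in Post-IS in T cells, CD14+ monocytes and MS4A7+ monocytes.

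RPL39, a small protein that lines the exit tunnel, took a larger part of the ribosomal protein UMIs in Post-IS and at 8 wpt than in Pre-IS. Its level was 4537, 6165, 4590.3 and 5629 CPM in T cells and 3132, 3072, 3072 and 4091 CPM in CD14+ monocytes. As a share of ribosomal protein UMIs, Post-IS over Pre-IS was 1.29 in T cells, 1.17 in CD14+ monocytes and 1.25 in MS4A7+ monocytes, and 8 wpt over Pre-IS was 1.31, 1.28 and 1.49. Both intervals lay above 1 in each of these labels. RPL6, of the large subunit, was likewise above 1 in Post-IS over Pre-IS, at 1.28, 1.3 and 1.23.

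RPS20 was at 1760.1, 1259, 1918 and 1731 CPM in T cells. Its share of ribosomal protein UMIs in 4 wpt over Post-IS was 1.71 (1.47 to 1.99) in T cells, 1.65 (1.41 to 1.95) in CD14+ monocytes and 1.71 (1.4 to 2.10) in MS4A7+ monocytes. Thinning moved the CD14+ value to 1.27. RPL12, at the base of the stalk, and RPS26 went the other way in 4 wpt over Post-IS, RPL12 at 0.72, 0.75 and 0.76 and RPS26 at 0.81, 0.70 and 0.75. Counts of members with intervals on the same side of 1 in all 3 labels were highest for 8 wpt over 4 wpt, with 8 higher and 12 lower, and lowest for 8 wpt over Pre-IS, with 2 higher and 0 lower. Counting intervals narrow as UMIs rise, so these counts depend on depth as well as on the size of a change. No share over all rows was taken beside them. They, too, were set after the data were seen.

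Paralogs were set against their partner genes. RPL22 is needed for the development of alpha-beta T cells in mice, and RPL22L1 can take its place. RPL22L1 was at 476, 640.1, 768 and 692 CPM in T cells, lowest in Pre-IS. Its part of the UMIs of both genes was 13.5%, 17.0%, 19.2% and 19.0%. In B cells the part was 7.89% in Pre-IS, 18.1% at 4 wpt and 14.5% at 8 wpt, and in NK cells 8.54%, 12.6% and 9.48%. RPL22L1 as a share of ribosomal protein UMIs in 4 wpt over Pre-IS was 1.72 (1.57 to 1.87) in T cells, 1.73 (1.37 to 2.19) in NK cells and 2.91 (2.31 to 3.68) in B cells. In CD14+ monocytes it was 1.26, and 0.929 after thinning.

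RPS4Y1 gave between 29.1% and 37.8% of the UMIs of RPS4X and RPS4Y1 in all labels and libraries of at least 50 cells. RPL7L1, the paralog of RPL7, gave 1.84%, 5.0%, 2.25% and 2.08% of the UMIs of RPL7 and RPL7L1 in T cells, and its Post-IS level of 48.7 CPM is next to the floor of 20.9 CPM that 3 UMIs make there. In B cells its part was 0.988% in Pre-IS, 3.79% at 4 wpt and 4.51% at 8 wpt, on 4, 21 and 18 UMIs of RPL7L1. RPS27L gave 4.59%, 9.02% and 7.15% of the UMIs of RPS27 and RPS27L in NK cells of the same libraries. Rows of related genes can split or share reads, so their parts are uncertain, and how alike the sequences are was not analysed here. RPS27A is a different case, where the same symbol names another row. Its symbol row had 77.8 CPM in Pre-IS T cells. A row under an identifier that the reference table names RPS27A had 7605 CPM. In all, 12 rows under an identifier were named as ribosomal protein genes, among them RPS3A, RPL37, RPS19 and RPL14, and 5 of the 12 repeat the symbol of a member. They are outside the symbol rule. RPS6, RPL11 and RPLP0 were not analysed here.

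Other genes of translation gave the setting. Of elongation factors and other TOP messages, 6 of 16 were past 1.5-fold higher in T cells than in CD14+ monocytes in Pre-IS, 10 in Post-IS, 6 at 4 wpt and 4 at 8 wpt, with median log2 ratios of 0.38, 0.60, 0.41 and 0.29. The share of all rows past the fold was 33.7%, 20.8%, 36.9% and 34.9%, and the list stood well above it in Post-IS alone. TPT1, a growth-related TOP message, had ratios of 2.03, 2.67, 1.96 and 1.78, and EEF1A1, the main elongation factor, 1.76, 2.04, 1.65 and 1.45. PABPC1, the poly(A)-binding protein and also a TOP message, was on the other side at 0.62, 0.77, 0.64 and 0.59. The 11 initiation factors stood near even, with medians of 0.08, -0.13, 0.09 and -0.02. EIF4A1, the helicase of initiation, was at 0.45, 0.45, 0.41 and 0.43.

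Ribosome biogenesis genes had medians of 0.49, 0.91, 0.42 and 0.39, with 23, 9, 26 and 24 of 26 tested. The 67 mitochondrial ribosomal protein genes had 0.24, 0.12, 0.25 and 0.13, close to the 0.16, -0.27, 0.25 and 0.21 of all rows except in Post-IS. Cytosolic ribosomal protein genes, at 0.77, 1.08, 0.64 and 0.61, were above each of these lists in each library. FAU and RACK1, subunits whose names the rule does not match, had ratios of 1.42, 1.4, 1.24 and 1.38 (FAU) and 1.37, 2.10, 1.48 and 1.27 (RACK1).

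Of the 15 TOP and mTOR regulators, 6 of 14 tested were past 1.5-fold higher and 4 lower in T cells than in CD14+ monocytes in Pre-IS (33.7% and 22.3% of all rows). In Post-IS 0 were higher and 3 lower of 5 tested (20.8% and 41.2%), at 4 wpt 7 and 3 of 15 (36.9% and 20.4%) and at 8 wpt 5 and 3 of 15 (34.9% and 21.0%). The medians were 0.32, -1.07, 0.34 and 0.22, on the other side of 0 in Post-IS. EIF4EBP1, which blocks the cap-binding factor until mTOR phosphorylates it, was lower, at 0.16, 0.27, 0.28 and 0.34 times the monocyte level. DDIT4, an mTOR inhibitor induced by stress and glucocorticoids, was at 21.9 CPM in CD14+ monocytes in Pre-IS, 118 in Post-IS, 26.4 at 4 wpt and 16.4 at 8 wpt. It was 5.4 times as high in Post-IS as in Pre-IS, in the library where the CD14+ share of ribosomal protein genes was lowest, and in T cells 1.71 times as high (65.2, 111, 119 and 63.1 CPM). A floor of 3 UMIs equals 5.47 CPM in Pre-IS and 6.69 CPM in Post-IS CD14+ monocytes, and 20.9 CPM in Post-IS T cells. No interval is given for DDIT4. Whether these levels and the share are related was not tested. MYC, a transcription factor for ribosome biogenesis, was at 87.6, 49.0, 103 and 118 CPM in CD14+ monocytes, lowest in Post-IS.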

How the data were processed

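The libraries were made with the 10x Genomics 5′ V1 kit and sequenced as paired 150 bp reads on a HiSeq X instrument, per the labels' protocols. Mmul_10 is the genome build in the submitters' processing notes, which list Seurat 3.2.3 beside Cell Ranger 3.1.0 as tools. The authors deposited raw UMI counts per gene row and cell, without normalization, and 1 cell type label per barcode. How cells and gene rows were chosen is not given in the sources used here. UMIs were summed per label and library (labels of at least 50 cells for shares) and divided by the label total, as a percent or as CPM. Shares carry exact Clopper-Pearson intervals and ratios exact conditional binomial intervals. A ratio needed 20 UMIs over both sides, and log2 medians used an offset of 0.5 UMIs. No count model was fitted, since each group has 1 library, and edgeR 4.0.16 (TMM) and DESeq2 1.42.0 (median of ratios) served for other scalings only. Python 3.11.15 was used, and the summing and ratios were tested on simulated data.

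Depth per library was 3356133, 791030, 6910432 and 5482144 UMIs (Pre-IS, Post-IS, 4 wpt, 8 wpt). A floor of 3 UMIs equals 2.22 CPM in Pre-IS T cells and 20.9 CPM in Post-IS T cells. No doublet caller was run. Cells above 3 times the median UMIs of their label and library (7, 10, 14 and 7 cells) were left out in an alternative. Alternatives were also thinning to 1000 UMIs per cell, equal weight per cell, other totals, other member sets and other UMI minimums. The members and gene lists were chosen with earlier results of these data known. Named members were the 5 with most UMIs in T cells, B cells and CD14+ monocytes. To these came the 5 highest and 5 lowest of each label contrast and the 3 highest and 3 lowest of each library comparison by share of ribosomal protein UMIs, and a fixed set of paralogs and stalk genes. Members outside the rule are named in counts of 5 or fewer. Some genes that enter the sums and counts are not reported here by name. The identifiers of 12 rows were named from a RefSeq gene table of another build, used for names only. Sequence features of the promoters and proteins were planned and not analysed here.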

Additional observations from a re-analysis of the deposited data

Results flagged for a closer look

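The share of ribosomal protein UMIs moved in opposite directions in different labels, with counting intervals on opposite sides of 1, in each of the 6 library comparisons. Each value is the share in the first library over that in the second, from 1 library each, and the differences between labels were not tested. In Post-IS over Pre-IS T cells were at 1.055, while CD14+ monocytes were at 0.840 and MS4A7+ monocytes at 0.949. In 4 wpt over Post-IS CD14+ monocytes were at 1.21, against 0.892 in T cells and 0.896 in MS4A7+ monocytes. In 8 wpt over Post-IS CD14+ monocytes were at 1.22 and MS4A7+ monocytes at 1.29, against 0.897 in T cells. In 8 wpt over 4 wpt T cells (1.006), B cells (1.039) and MS4A7+ monocytes (1.44) were above 1 and NK cells (0.972) below. In 4 wpt over Pre-IS CD14+ monocytes were at 1.020, against 0.941 in T cells, 0.943 in NK cells, 0.952 in B cells and 0.850 in MS4A7+ monocytes. In 8 wpt over Pre-IS CD14+ monocytes (1.024) and MS4A7+ monocytes (1.22) were above 1, against 0.947 in T cells, 0.917 in NK cells and 0.989 in B cells. The T cell values of Post-IS over Pre-IS and of 8 wpt over Post-IS turn with the weighting of the marker groups, to 0.961 and 1.010. That of 8 wpt over 4 wpt turns to 0.997 with each cell weighted equally and to 0.996 after thinning.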

How the results depend on the processing

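Of the 488 alternative values of share ratios and counts, 361 kept their direction and stayed within the counting interval or within 1.5 times of the count, 123 moved and 4 reversed. Of the values for single members 2849 stayed, 152 moved and 9 reversed. The cause was not tested. The limits are the depth and size of Post-IS (115 T cells, 9 NK cells, 12 B cells), 1 library per group, and labels, cells and gene rows chosen by the authors. No paired analysis was possible because each group has 1 library and no replicate number in the labels. TMM and the median of ratios were not run for T over NK and B over T. T cell marker weighting, the minimum of 500 UMIs, the limits of 1.2, 1.3 and 1.4-fold, the leaving out of Post-IS and of libraries under 50 cells, and the form in which the order of the labels was counted were chosen after seeing the data. With cells thinned to 1000 UMIs, the T share ratios were 1.086 (Post-IS over Pre-IS), 0.860 (4 wpt over Post-IS), 0.857 (8 wpt over Post-IS), 0.996 (8 wpt over 4 wpt), 0.934 (4 wpt over Pre-IS) and 0.931 (8 wpt over Pre-IS). The naive B share ratio was 0.980 (8 wpt over Pre-IS). The NK share ratio was 0.924 (8 wpt over Pre-IS). The B share ratios were 1.067 (8 wpt over 4 wpt), 0.914 (4 wpt over Pre-IS) and 0.975 (8 wpt over Pre-IS). The CD14+ share ratios were 0.851 (Post-IS over Pre-IS), 0.993 (8 wpt over 4 wpt), 1.041 (4 wpt over Pre-IS) and 1.034 (8 wpt over Pre-IS). The MS4A7+ share ratios were 0.985 (Post-IS over Pre-IS), 0.709 (4 wpt over Post-IS), 1.098 (8 wpt over Post-IS), 1.55 (8 wpt over 4 wpt), 0.698 (4 wpt over Pre-IS) and 1.081 (8 wpt over Pre-IS). The T over CD14+ share ratios were 2.19 (Post-IS), 1.54 (4 wpt) and 1.54 (8 wpt). The MS4A7+ over CD14+ share ratios were 0.746 (Pre-IS), 0.864 (Post-IS), 0.501 (4 wpt) and 0.781 (8 wpt). With each cell weighted equally, the T share ratios were 1.067 (Post-IS over Pre-IS), 0.882 (4 wpt over Post-IS), 0.879 (8 wpt over Post-IS), 0.997 (8 wpt over 4 wpt) and 0.938 (8 wpt over Pre-IS). The NK share ratio was 0.951 (4 wpt over Pre-IS). The B share ratios were 1.075 (8 wpt over 4 wpt), 0.928 (4 wpt over Pre-IS) and 0.998 (8 wpt over Pre-IS). The CD14+ share ratios were 1.23 (4 wpt over Post-IS), 0.998 (8 wpt over 4 wpt) and 1.031 (4 wpt over Pre-IS). The MS4A7+ share ratios were 0.904 (Post-IS over Pre-IS), 1.36 (8 wpt over Post-IS), 1.53 (8 wpt over 4 wpt) and 0.804 (4 wpt over Pre-IS). The T over CD14+ share ratios were 1.67 (Pre-IS), 2.13 (Post-IS), 1.53 (4 wpt) and 1.53 (8 wpt). The MS4A7+ over CD14+ share ratios were 0.601 (Pre-IS), 0.649 (Post-IS), 0.469 (4 wpt) and 0.720 (8 wpt). The order of the 3 labels then held in 3 of 4 libraries. With T cell marker groups weighted as in Pre-IS, the T share ratios were 0.961 (Post-IS over Pre-IS), 0.927 (4 wpt over Post-IS), 1.010 (8 wpt over Post-IS), 1.090 (8 wpt over 4 wpt), 0.891 (4 wpt over Pre-IS) and 0.971 (8 wpt over Pre-IS). Without possible doublets, the B share ratios were 1.050 (8 wpt over 4 wpt) and 0.937 (4 wpt over Pre-IS). The CD14+ share ratio was 1.011 (8 wpt over 4 wpt). The MS4A7+ share ratios were 0.914 (Post-IS over Pre-IS), 1.36 (8 wpt over Post-IS) and 1.49 (8 wpt over 4 wpt). The T over CD14+ share ratio was 1.60 (4 wpt). The MS4A7+ over CD14+ share ratios were 0.729 (Post-IS) and 0.550 (4 wpt). With identifier rows and subunits outside the name rule added, the CD14+ share ratio was 0.997 (8 wpt over 4 wpt). The T over CD14+ share ratio was 1.57 (4 wpt). Without the member with most UMIs, the T over CD14+ share ratios were 1.73 (Pre-IS), 1.59 (4 wpt) and 1.60 (8 wpt). The MS4A7+ over CD14+ share ratio was 0.574 (4 wpt). Without mitochondrial, hemoglobin and immunoglobulin genes in the total, the T over CD14+ share ratio was 1.58 (4 wpt).

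With CPM of the total without ribosomal protein genes, the counts past 1.5-fold were 10 in place of 3 (T over NK higher), 15 in place of 5 (B over T lower), 7 in place of 4 (MS4A7+ over CD14+ lower), 2 in place of 1 (T 8 wpt over Post-IS) and 6 in place of 3 (CD14+ Post-IS over Pre-IS). With cells thinned to 1000 UMIs, the counts past 1.5-fold were 2 in place of 5 (B over T lower), 1 in place of 0 (MS4A7+ over CD14+ higher), 0 in place of 2 (T Post-IS over Pre-IS), 2 in place of 0 (T 8 wpt over 4 wpt), 5 in place of 3 (CD14+ Post-IS over Pre-IS), 0 in place of 2 (CD14+ 8 wpt over Pre-IS), 4 in place of 2 (MS4A7+ Post-IS over Pre-IS), 28 in place of 4 (MS4A7+ 4 wpt over Post-IS), 6 in place of 12 (MS4A7+ 8 wpt over Post-IS), 30 in place of 6 (MS4A7+ 4 wpt over Pre-IS) and 5 in place of 10 (MS4A7+ 8 wpt over Pre-IS). Without Post-IS, the count past 1.5-fold was 1 in place of 0 (MS4A7+ over CD14+ higher). With TMM scaling, the counts past 1.5-fold were 32 in place of 4 (MS4A7+ over CD14+ lower), 6 in place of 3 (CD14+ Post-IS over Pre-IS), 18 in place of 11 (CD14+ 4 wpt over Post-IS), 2 in place of 4 (MS4A7+ 4 wpt over Post-IS), 26 in place of 12 (MS4A7+ 8 wpt over Post-IS), 3 in place of 6 (MS4A7+ 4 wpt over Pre-IS) and 26 in place of 10 (MS4A7+ 8 wpt over Pre-IS). With the median of ratios, the counts past 1.5-fold were 23 in place of 4 (MS4A7+ over CD14+ lower), 5 in place of 1 (T 8 wpt over Post-IS), 6 in place of 3 (CD14+ Post-IS over Pre-IS) and 21 in place of 12 (MS4A7+ 8 wpt over Post-IS). With standard subunits alone, the counts past 1.5-fold were 1 in place of 2 (T Post-IS over Pre-IS), 0 in place of 1 (T 8 wpt over Post-IS), 0 in place of 2 (T 4 wpt over Pre-IS), 0 in place of 1 (CD14+ 8 wpt over 4 wpt), 1 in place of 2 (CD14+ 8 wpt over Pre-IS) and 1 in place of 2 (MS4A7+ Post-IS over Pre-IS). With a minimum of 50 UMIs, the counts past 1.5-fold were 1 in place of 2 (T Post-IS over Pre-IS), 1 in place of 2 (CD14+ 8 wpt over Pre-IS) and 1 in place of 2 (MS4A7+ Post-IS over Pre-IS). With a minimum of 500 UMIs, the counts past 1.5-fold were 1 in place of 2 (T Post-IS over Pre-IS), 0 in place of 1 (T 8 wpt over Post-IS), 1 in place of 2 (T 4 wpt over Pre-IS), 0 in place of 1 (CD14+ 8 wpt over 4 wpt), 2 in place of 4 (CD14+ 4 wpt over Pre-IS), 0 in place of 2 (CD14+ 8 wpt over Pre-IS), 1 in place of 2 (MS4A7+ Post-IS over Pre-IS), 2 in place of 4 (MS4A7+ 4 wpt over Post-IS), 6 in place of 12 (MS4A7+ 8 wpt over Post-IS), 2 in place of 6 (MS4A7+ 4 wpt over Pre-IS) and 2 in place of 10 (MS4A7+ 8 wpt over Pre-IS). With no minimum, the count past 1.5-fold was 1 in place of 0 (T 8 wpt over Pre-IS). Without possible doublets, the count past 1.5-fold was 1 in place of 2 (MS4A7+ Post-IS over Pre-IS). No share of all rows was computed for these alternative counts, except with the minimum of 500 UMIs. The count of members past the fold in their share of ribosomal protein UMIs, T cells over CD14+ monocytes, was 26 at 1.2-fold and 10 at 1.3-fold in place of 5. Thinning reversed 9 single members in their share of ribosomal protein UMIs: in CD14+ monocytes RPS18 (0.983, 4 wpt over Post-IS), RPS3 (0.902, 8 wpt over Post-IS), RPL22L1 (0.929, 4 wpt over Pre-IS) and RPS27A (0.936, 8 wpt over Pre-IS). In MS4A7+ monocytes these were RPL7A (0.962, Post-IS over Pre-IS), RPS3 (1.029, 4 wpt over Post-IS), RPL36 (1.018) and RPS23 (0.994, both 8 wpt over Post-IS), and in NK cells RPL26 (1.019, 8 wpt over 4 wpt).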
